A study of Mus musculus with 8 samples.

Results

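MCE301 cells after 24 h in 2 mM sodium butyrate were compared with the same cells after 6 h, to find what changed late, beyond the early response. The members were chosen by array title: 2 arrays of 24 h cells and 2 arrays of 6 h cells, 4 of the 8 arrays of the series. MCE301 is a colonic epithelial line from transgenic mice whose simian virus large T-antigen is temperature-sensitive, and all 4 arrays carry that background and the same dose. The other arrays, 2 of 0 h cells and 2 of 12 h cells, entered no test here and serve to place the changes in time. Untreated cells kept for 24 h or 6 h are not among the arrays, so effects of butyrate and of time in culture cannot be told apart. The titles number the arrays of a time 1 and 2 but do not state separate cultures. The spread behind each p-value is therefore that between 2 arrays of a time, and it may be technical. Fewer cells of a kind and less RNA per cell cannot be told apart in such bulk RNA either.

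Butyrate is a short-chain fatty acid made by gut bacteria from dietary fibre. Colonic epithelial cells burn it as a fuel, and it also inhibits histone deacetylases, so that acetyl groups accumulate on histones and many genes are switched on or off. In cultured colonic cells it is known for slowing proliferation and raising markers of differentiation. A cell that leaves the cycle stops making the messenger RNAs for DNA replication and for mitosis, which cycling cells make in turn. The E2F and DREAM complexes take part in the control of these genes.

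The values are array signals, a linear brightness per probe set, and were comparable between the arrays in these terms. The 2% trimmed mean was 500.2 on each array. Median signals were 152.8 and 147.0 at 24 h, against 140.1 and 142.9 at 6 h. Signals below 32, where they carry little information, made up 21.2% and 22.5% of an array at 24 h, against 26.4% and 23.8% at 6 h. The Gapdh 3' to 5' ratio was 0.878 and 0.774 at 24 h, against 0.862 and 0.787 at 6 h. Arrays of 1 time correlated at r = 0.987 at 24 h and 0.975 at 6 h over probe sets, which are not independent, and 0.14% and 0.2% of their signals were identical. The number of arrays, 2 a time, limits the precision.

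The labelled cell type was set against its markers. Epcam, an adhesion molecule of epithelia, had signals of 5392.5 and 4876.3 at 24 h, against 4721.1 and 3690.2 at 6 h. The keratins Krt8, Krt18 and Krt19 and the claudins Cldn3, Cldn4 and Cldn7 were bright on all 4 arrays, with 4127.5 for Cldn3 as their lowest signal. Defining genes of the differentiated gut lining were partly absent: the brush border gene Vil1 reached at most 13.6 and the intestinal factor Cdx1 at most 7.0 on these arrays, while Cdx2 had 284.4 and 284.2 at 24 h, against 329.0 and 372.9 at 6 h. Of 47 markers of 6 other cell types (goblet, enteroendocrine, Paneth, fibroblast, immune and endothelial), 44 stayed below 150 on all 4 arrays. The exceptions were Fcgbp, Eng on 1 array and Csf1r, a receptor of macrophages, with 255.4 and 207.0 at 24 h, against 494.7 and 551.6 at 6 h.

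Of 7340 genes tested, 1638 (22.3%) differed between 24 h and 6 h at a Benjamini-Hochberg adjusted p under 0.05 in limma. At 24 h, 777 genes (10.6%) were higher and 861 (11.7%) were lower. Changes of at least 2-fold were called for 278 genes (3.79%) that were higher and 386 (5.26%) that were lower. The median log2 change over all tested genes was 0.00835. Among the called genes the median size of the log2 change was 0.863 for rises and 0.943 for falls. The arrays of the times did not overlap for any called gene, but 2990 of the 5702 genes not called were separate too. Log2 changes here are of signal plus 32, 24 h minus 6 h, which understates the change of low signals. The filter on low signals kept 97 genes through the 24 h arrays alone, of which 86 were among the 777 higher genes, and 6 through the 6 h arrays alone, of which 2 were among the lower genes. Such genes had to differ, so counts of higher genes are in part a product of the filter. Of these 86 higher genes, the glycolysis, keratin, actin and neuronal lists described below hold 2 each. Cnn1, the actin list's example under the other observations, is among them, so its difference is no evidence for that list. The interferon, chemokine, lysosome, NRF2 and integrin lists hold 1 each.

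**Figure D1:**
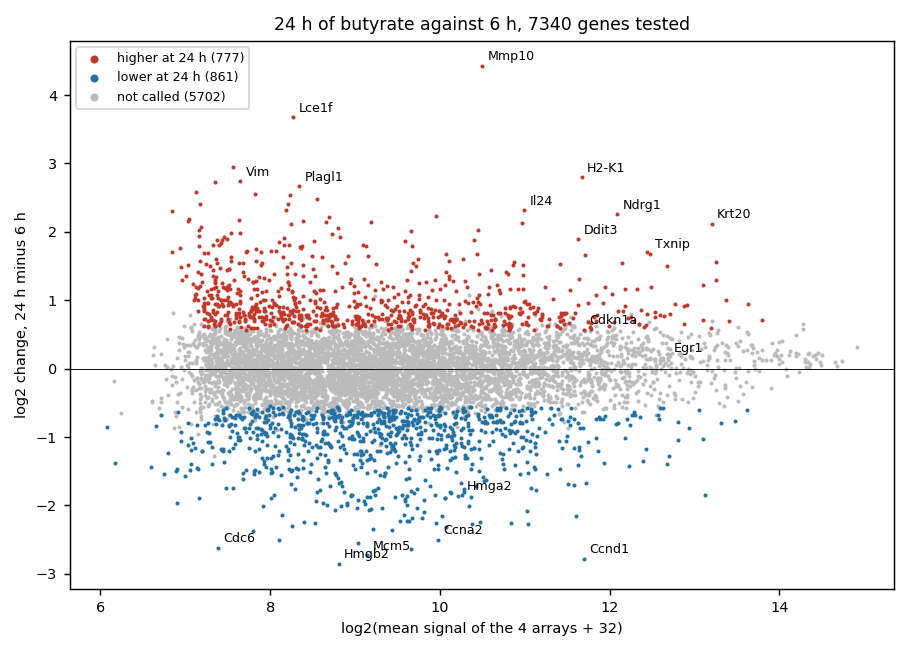
Each point is 1 of the 7340 genes tested, with the log2 change at 24 h minus 6 h on the vertical axis against the log2 of the mean signal of the 4 arrays plus 32. The 777 genes called higher are red, the 861 called lower are blue and the rest grey, and Mmp10 stands highest at 4.43.

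The largest rise was that of Mmp10, which encodes stromelysin-2, a secreted protease of wounded and inflamed epithelium. Its signals were 3034.4 and 2395.8 at 24 h, against 52.6 and 157.8 at 6 h, a log2 change of 4.43 ± 0.33 (SE, adjusted p = 0.000133). The 6 h arrays differed from each other more than the 24 h arrays did, and both lay far below them. Lce1f, a late cornified envelope gene of skin, followed with 565.7 and 517.1 at 24 h, against 11.8 and 13.9 at 6 h (log2 change 3.68 ± 0.18, adjusted p = 3.74e-05). Its 6 h signals were near background, so the size depends on the amount added to each signal, with 4.72 for a smaller and 2.25 for a larger amount.

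H2-K1, the heavy chain of a classical MHC class I molecule, had 6276.0 and 5062.8 at 24 h, against 901.8 and 676.9 at 6 h, 6.97-fold higher. Its probe set is of a kind that can bind transcripts of similar genes, and the class I genes are much alike, so the value may be shared with them. Vim, the intermediate filament vimentin of mesenchymal cells, had 314.3 and 317.9 at 24 h, against 28.1 and 13.1 at 6 h (log2 change 2.74 ± 0.20). The 24 h arrays nearly coincided, and the 6 h signals were at the bottom of the range.

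Plagl1, an imprinted zinc finger factor that restrains the cell cycle, had 522.0 and 532.6 at 24 h, against 70.9 and 43.1 at 6 h (log2 change 2.67 ± 0.20). Guca1a, known from photoreceptors as an activator of guanylate cyclase, had 205.7 and 207.4 at 24 h, against 6.1 and 9.3 at 6 h. Sh3gl3, an endophilin of membrane traffic, had 255.4 and 246.4 at 24 h, against 13.5 and 8.1 at 6 h. These genes were at or close to background early and clearly measured late. Mogat2, an enzyme of fat absorption in the intestine, had 330.1 and 368.1 at 24 h, against 12.9 and 62.4 at 6 h (log2 change 2.55 ± 0.31). The others of the 12 largest rises were Adssl1 of purine synthesis, the collagenase Mmp13, Aldh2, which detoxifies aldehydes, and Prxl2b, a prostaglandin synthase, with log2 changes of 2.54, 2.48, 2.41 and 2.41. All 12 kept their call under each alternative that tested them, which was 15 or 16 of the 16 tried, since a stricter filter on low values left some of them out.

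The largest fall was that of Hmgb2, a chromatin protein of proliferating cells. Its signals were 60.9 and 96.5 at 24 h, against 767.8 and 739.5 at 6 h, a log2 change of -2.85 ± 0.21 (adjusted p = 0.000132). Ccnd1, cyclin D1, which drives passage through G1, had 846.5 and 785.3 at 24 h, against 5575.7 and 5968.0 at 6 h (log2 change -2.78 ± 0.18). The signal at 6 h was already below the 11902.6 and 10680.1 of the 0 h arrays. Most of the remaining largest falls belong to the cell cycle: Mcm5, Pbk, Cdc6, Kif20a, Ccna2, Kif11 and Pclaf, with log2 changes of -2.73, -2.64, -2.62, -2.55, -2.50, -2.38 and -2.34.

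Outside the cell cycle, Serpinb9, an inhibitor of the killer cell protease granzyme B, had 201.2 and 184.2 at 24 h, against 1207.8 and 1040.5 at 6 h (log2 change -2.36 ± 0.18). Mtm1, a lipid phosphatase of the endosome, had 276.4 and 383.0 at 24 h, against 1996.0 and 1535.4 at 6 h. A second probe set of Mtm1 was called in the opposite direction, with a log2 change of 0.95, so its direction depends on the probe set. Of the called genes, 1 had such a conflict, and 830 other kept probe sets of called genes moved in the direction of the call in 96.4% of cases. The 12 largest falls likewise kept their call under each alternative that tested them, 15 or 16 for each gene.

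**Figure D2:**
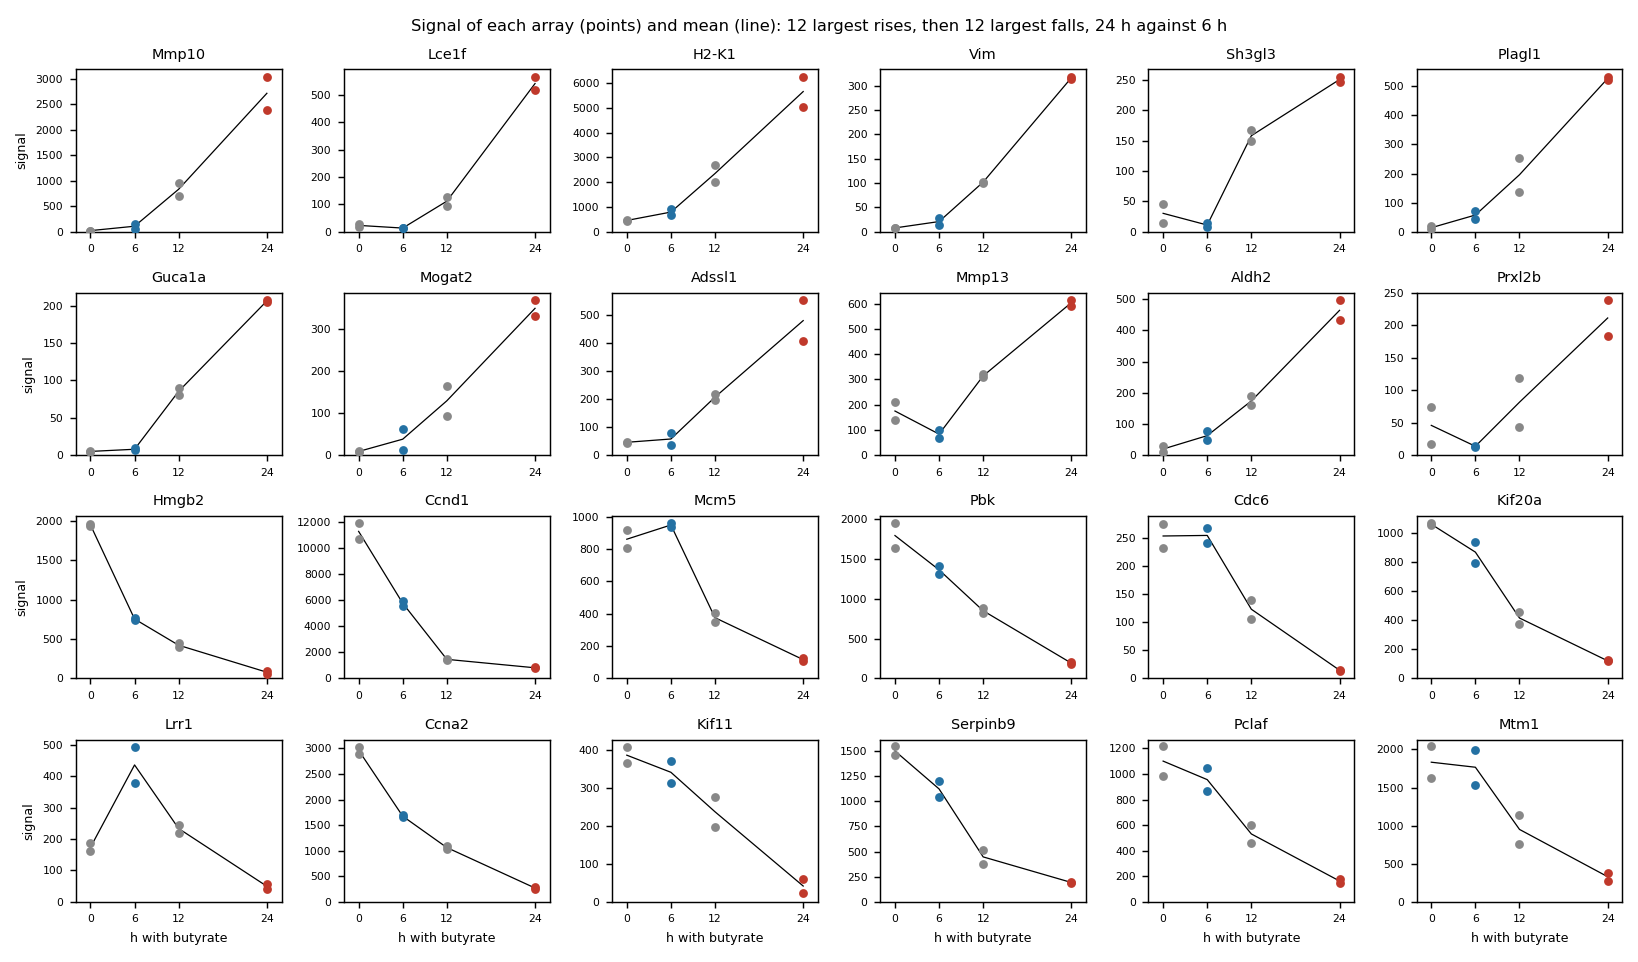
Signals of the 12 genes with the largest rises (upper 12 panels) and the 12 with the largest falls (lower 12 panels) are shown against hours with butyrate, each panel with its own linear scale. Points are arrays (red 24 h, blue 6 h, grey 0 h and 12 h) and the line joins the means of 2 arrays. In all 24 panels the 24 h arrays stand apart from the 6 h arrays, which the choice of genes required. In each the 12 h mean lies between the 6 h and 24 h means.

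The mitosis and G2/M list fell almost as a whole. Of 56 genes listed and 51 tested, 47 were lower at 24 h and 1 was higher, with a median log2 change of -1.77 beside 0.00835 for all tested genes. Kif11, the kinesin that pushes spindle poles apart, had 59.3 and 23.8 at 24 h, against 369.7 and 311.5 at 6 h (log2 change -2.38 ± 0.25). Ccna2, cyclin A2 of S phase and mitotic entry, had 296.4 and 243.5 at 24 h, against 1653.7 and 1694.2 at 6 h. On both genes each 24 h signal lay several-fold below each 6 h signal.

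Kif20a, a kinesin of cytokinesis, had 117.9 and 123.9 at 24 h, against 795.5 and 941.0 at 6 h. Pbk, a mitotic protein kinase, had 207.8 and 175.1 at 24 h, against 1407.6 and 1314.3 at 6 h. Examples named here outside the rule for named genes, and chosen with their values known, are Top2a, Birc5 and Mki67. Top2a, the topoisomerase that untangles sister chromatids, had 426.7 and 486.4 at 24 h, against 1865.9 and 2769.6 at 6 h (log2 change -2.24 ± 0.22). Birc5, the chromosomal passenger survivin, had 580.4 and 618.0 at 24 h, against 2990.2 and 2989.1 at 6 h (log2 change -2.26 ± 0.17). Mki67, the proliferation antigen Ki-67, had 251.9 and 271.1 at 24 h, against 1394.0 and 1216.5 at 6 h. The members not called were Cdc25b, Bub3 and Foxm1, with log2 changes of -0.79, -0.30 and -0.67.

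The exception was Pttg1, securin, which holds back separase until anaphase. It had 6185.9 and 5043.5 at 24 h, against 3376.9 and 2812.9 at 6 h (log2 change 0.85 ± 0.20, adjusted p = 0.0147). The call was lost without the first 24 h array (adjusted p = 0.102) and without the second 6 h array (0.0508). The count of lower genes was 45 to 47 whichever array was left out.

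**Figure D3:**
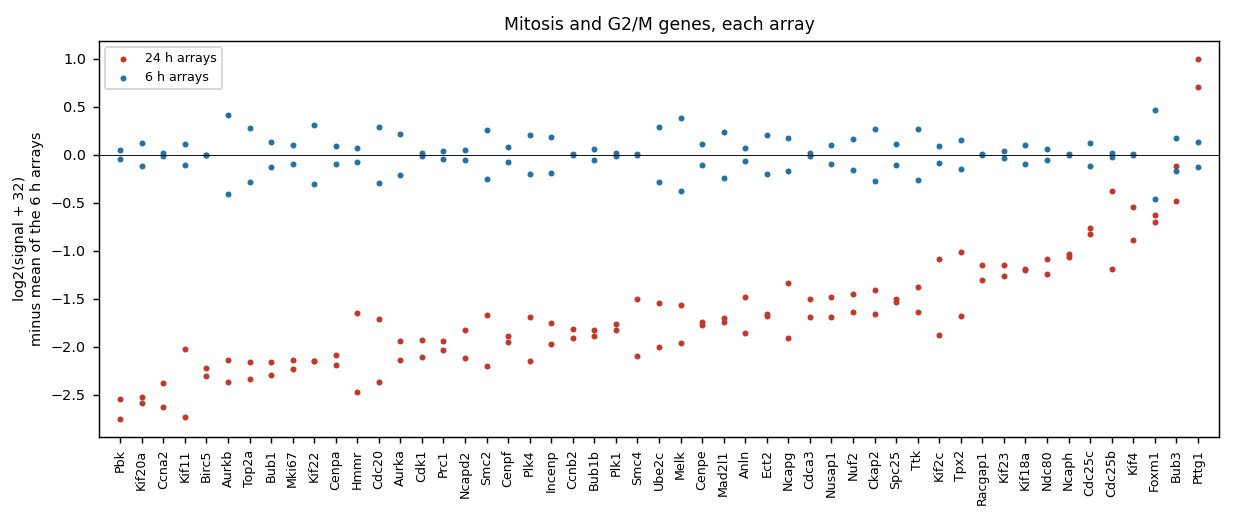
For each of the 51 tested mitosis and G2/M genes, points give log2(signal + 32) on each array minus the mean of the 6 h arrays, red for 24 h and blue for 6 h, ordered by change. The 24 h points lie below the 6 h points for most genes, from Pbk at -2.64, while those of Bub3 lie close together and those of Pttg1 lie above, at 0.85.

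DNA replication genes fell next most. Of 48 listed and 41 tested, 35 were lower, with a median log2 change of -1.31; in limma 0 were higher, also 0 at an unadjusted p under 0.05. Mcm5, a subunit of the replicative helicase, had 108.8 and 123.2 at 24 h, against 959.7 and 935.8 at 6 h (log2 change -2.73 ± 0.18). Cdc6, which loads that helicase onto origins, had 15.3 and 14.0 at 24 h, against 240.8 and 268.4 at 6 h. Its late signals were at background, and its log2 change was -3.53 with a smaller and -1.42 with a larger amount added to each signal.

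All 6 helicase subunits Mcm2 to Mcm7 were lower, with log2 changes from -2.73 for Mcm5 to -1.31 for Mcm2. Rrm2, the ribonucleotide reductase subunit that limits the supply of DNA building blocks, had 661.7 and 715.0 at 24 h, against 3441.3 and 3441.1 at 6 h. The members not called were Rfc1, Rfc2, Pold1, Prim2, Fen1 and Tipin, with log2 changes between -0.75 and -0.08. Without 1 array the list had 29 to 35 lower genes.

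For the called genes of these lists, 6 h was also set against the arrays before butyrate. Of the 48 called mitosis genes, 27 had already moved the same way between 0 h and 6 h with arrays that did not overlap, 17 had 6 h arrays that overlapped 0 h, and 4 had moved the opposite way first. For the 35 replication genes these numbers were 14, 11 and 10. Over all 861 lower genes the shares were 44.4%, 34.7% and 20.9%, and a difference between the lists was not tested. Mcm5 and Birc5 were among those that stood slightly above 0 h at 6 h and then fell.

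Promoter sequences of genes from both lists are given here, to show the windows that were searched for letters by which cell cycle genes are commonly grouped, with and without a match, and those of Mmp10 and Mmp13 as the leading proteases that rose. Each is the 250 bases before the gene's start in RefSeq, assembly GRCm38.p6, 5' to 3' on the gene's strand, with capitals for the motifs searched. Kif11 lies at chr19:37376132-37376381 (plus strand), Birc5 at chr11:117848987-117849236 (plus), Top2a at chr11:99024190-99024439 (minus), Mcm5 at chr8:75109259-75109508 (plus), Cdc6 at chr11:98907901-98908150 (plus), Mmp10 at chr9:7502092-7502341 (plus) and Mmp13 at chr9:7272264-7272513 (plus).
Kif11: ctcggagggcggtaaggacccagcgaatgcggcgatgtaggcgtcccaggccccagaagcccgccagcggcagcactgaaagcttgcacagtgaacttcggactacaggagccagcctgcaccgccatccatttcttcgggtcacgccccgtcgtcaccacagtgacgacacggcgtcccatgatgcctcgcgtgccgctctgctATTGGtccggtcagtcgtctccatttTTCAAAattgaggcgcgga
Birc5: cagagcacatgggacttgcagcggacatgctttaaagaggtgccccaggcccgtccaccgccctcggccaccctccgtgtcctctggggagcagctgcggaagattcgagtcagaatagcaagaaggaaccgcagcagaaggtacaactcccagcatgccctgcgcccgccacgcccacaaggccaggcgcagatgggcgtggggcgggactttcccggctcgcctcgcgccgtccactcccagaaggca
Top2a: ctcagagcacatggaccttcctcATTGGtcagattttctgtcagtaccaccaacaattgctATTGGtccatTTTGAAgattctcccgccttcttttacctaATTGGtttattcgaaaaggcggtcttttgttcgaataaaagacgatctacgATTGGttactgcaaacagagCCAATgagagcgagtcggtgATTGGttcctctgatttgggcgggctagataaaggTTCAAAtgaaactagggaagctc
Mcm5: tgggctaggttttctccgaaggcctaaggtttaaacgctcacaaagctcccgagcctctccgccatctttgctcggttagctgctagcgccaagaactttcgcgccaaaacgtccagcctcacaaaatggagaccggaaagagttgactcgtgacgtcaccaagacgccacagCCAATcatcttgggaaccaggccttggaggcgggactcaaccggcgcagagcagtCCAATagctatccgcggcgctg
Cdc6: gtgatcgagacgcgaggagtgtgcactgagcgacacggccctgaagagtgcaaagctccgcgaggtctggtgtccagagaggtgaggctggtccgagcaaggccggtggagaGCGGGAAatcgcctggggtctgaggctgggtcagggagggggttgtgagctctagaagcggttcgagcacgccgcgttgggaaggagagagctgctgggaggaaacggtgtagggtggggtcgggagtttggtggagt
Mmp10: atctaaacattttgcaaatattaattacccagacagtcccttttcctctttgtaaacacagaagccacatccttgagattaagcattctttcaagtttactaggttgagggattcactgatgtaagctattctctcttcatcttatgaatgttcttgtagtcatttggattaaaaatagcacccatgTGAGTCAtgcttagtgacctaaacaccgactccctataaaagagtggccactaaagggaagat
Mmp13: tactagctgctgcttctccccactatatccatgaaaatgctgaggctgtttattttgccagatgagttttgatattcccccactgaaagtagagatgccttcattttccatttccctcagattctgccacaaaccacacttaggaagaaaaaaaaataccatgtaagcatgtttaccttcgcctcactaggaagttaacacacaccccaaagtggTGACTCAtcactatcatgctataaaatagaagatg

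The capitals mark any match, on either strand, to the CHR letters TTTGAA of mitotic promoters and the CCAAT box in Kif11, Birc5 and Top2a, the E2F-type letters GCGGGAA and the CCAAT box in Mcm5 and Cdc6, and the AP-1 letters TGANTCA in Mmp10 and Mmp13. Kif11 held 1 CHR match, 19 bases before the start, with a CCAAT box 45 bases before it. Top2a held 2 CHR matches and 6 CCAAT boxes in this window, and Birc5 held no match. Mcm5 held 2 CCAAT boxes before the start and no match to GCGGGAA. Other E2F-type strings were not searched, so their absence from Mcm5 is not shown. Cdc6 held 1 match to GCGGGAA at 138 bases and no CCAAT box. The AP-1 letters stood 63 bases before the start of Mmp10 and 35 before that of Mmp13.

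Over 300 bases, from 250 before to 50 after the start, promoters were found for 6044 of the 7340 tested genes. CHR letters stood in 30 of the 42 mitosis promoters (71.4%), beside 11.3% of the promoters of tested genes and 18.1% of all 27025 in the table. CCAAT boxes stood in 71.4% of mitosis and 58.8% of replication promoters, beside 39.0% and 37.9%. E2F-type letters stood in 14 of 34 replication promoters (41.2%) and in 4.76% of mitosis promoters, beside 9.33% and 4.66%. Genes lower at 24 h held the CHR letters in 18.2% of promoters, those higher in 9.74%. AP-1 letters stood in 4 of the 13 promoters of the matrix protease list (30.8%), beside 4.68% and 7.93%. A match is a string of letters and not a binding site, and none of these shares was tested.

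Other lists of growing cells fell as well, and their counts are read beside 11.7% lower among all tested genes. High mobility group and histone chaperone genes had 8 of 15 tested lower and a median log2 change of -0.73, led after Hmgb2 by Nasp (-2.05), Asf1b (-1.93) and Hmga2 (-1.85). Hmga2, a chromatin protein of embryonic and tumour cells, had 482.4 and 505.9 at 24 h, against 2202.5 and 1577.3 at 6 h. Of 58 ribosome biogenesis genes tested, 28 were lower (14 without a filter on low values), with a median of -0.59. In limma 0 were higher, also at an unadjusted p under 0.05. The median was -0.64 to -0.59 whichever array was left out. Nolc1, a nucleolar chaperone of ribosome assembly, had 325.6 and 377.1 at 24 h, against 1182.4 and 1099.0 at 6 h (log2 change -1.62 ± 0.18). Nop56, a core protein of the particles that methylate ribosomal RNA, had 503.9 and 655.4 at 24 h, against 1616.0 and 1774.0 at 6 h. By contrast, 0 of 42 cytosolic ribosomal protein genes were called in limma, and 0 had an unadjusted p under 0.05. Their median was 0.12, and -0.02 after quantile normalization. It was -0.11 to 0.34 whichever array was left out. The list's summed signals were 574463.9 and 700396.3 at 24 h, against 494281.6 and 687335.0 at 6 h. With arrays of 1 time this far apart, the lack of calls does not show equal levels.

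Nuclear pore and transport genes had 21 of 40 lower and 1 higher, with a median log2 change of -0.64. The higher gene, Seh1l (0.63), lost its call with arrays scaled to their medians and with its probe sets averaged. Nup85, of the ring that scaffolds the pore, had 191.3 and 274.1 at 24 h, against 831.9 and 983.7 at 6 h (log2 change -1.84 ± 0.21). Ranbp1, which helps Ran release its cargo, had 3589.5 and 3564.3 at 24 h, against 8469.3 and 10475.4 at 6 h. Of 47 splicing factors 16 were lower, with a median of -0.43, led by Rbmx (-2.30), Srsf3 and Hnrnpa2b1 (both -1.54). Without the first or the second 24 h array the nuclear pore count was 12 or 10, and without the second the splicing count was 9.

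Of 21 tested genes of G1 and cyclin-dependent kinase control, 9 were lower and 4 higher, a median log2 change of -0.55. Cdk4, the partner of cyclin D1, had 1565.5 and 1801.1 at 24 h, against 3637.7 and 3948.1 at 6 h (log2 change -1.16 ± 0.18). Skp2, which marks the inhibitor p27 for destruction, had 222.2 and 150.8 at 24 h, against 789.8 and 534.3 at 6 h, and Ccne1, cyclin E1, fell by 1.45 on the log2 scale. The 4 that were higher are all genes of kinase inhibitors. The list's other inhibitor genes, Cdkn1b, Cdkn2c and Cdkn2d, were not among those called higher. Cdkn1c, the imprinted inhibitor p57, had 389.0 and 276.8 at 24 h, against 77.1 and 78.7 at 6 h (log2 change 1.71 ± 0.20). Cdkn2b, p15, had 1248.3 and 1290.3 at 24 h, against 672.4 and 722.3 at 6 h (adjusted p = 0.00955, and 0.0587 without the second 24 h array). Cdkn2a had a log2 change of 0.66 and Cdkn1a, p21, of 0.57 (adjusted p = 0.0253 and 0.05). Both calls were lost whichever array was left out, with adjusted p of 0.0528 to 0.128 for Cdkn2a and 0.0955 to 0.24 for Cdkn1a. The count of higher genes was 2 or 1 whichever array was left out, and that of lower genes was 5 without the second 24 h array.

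**Figure D4:**
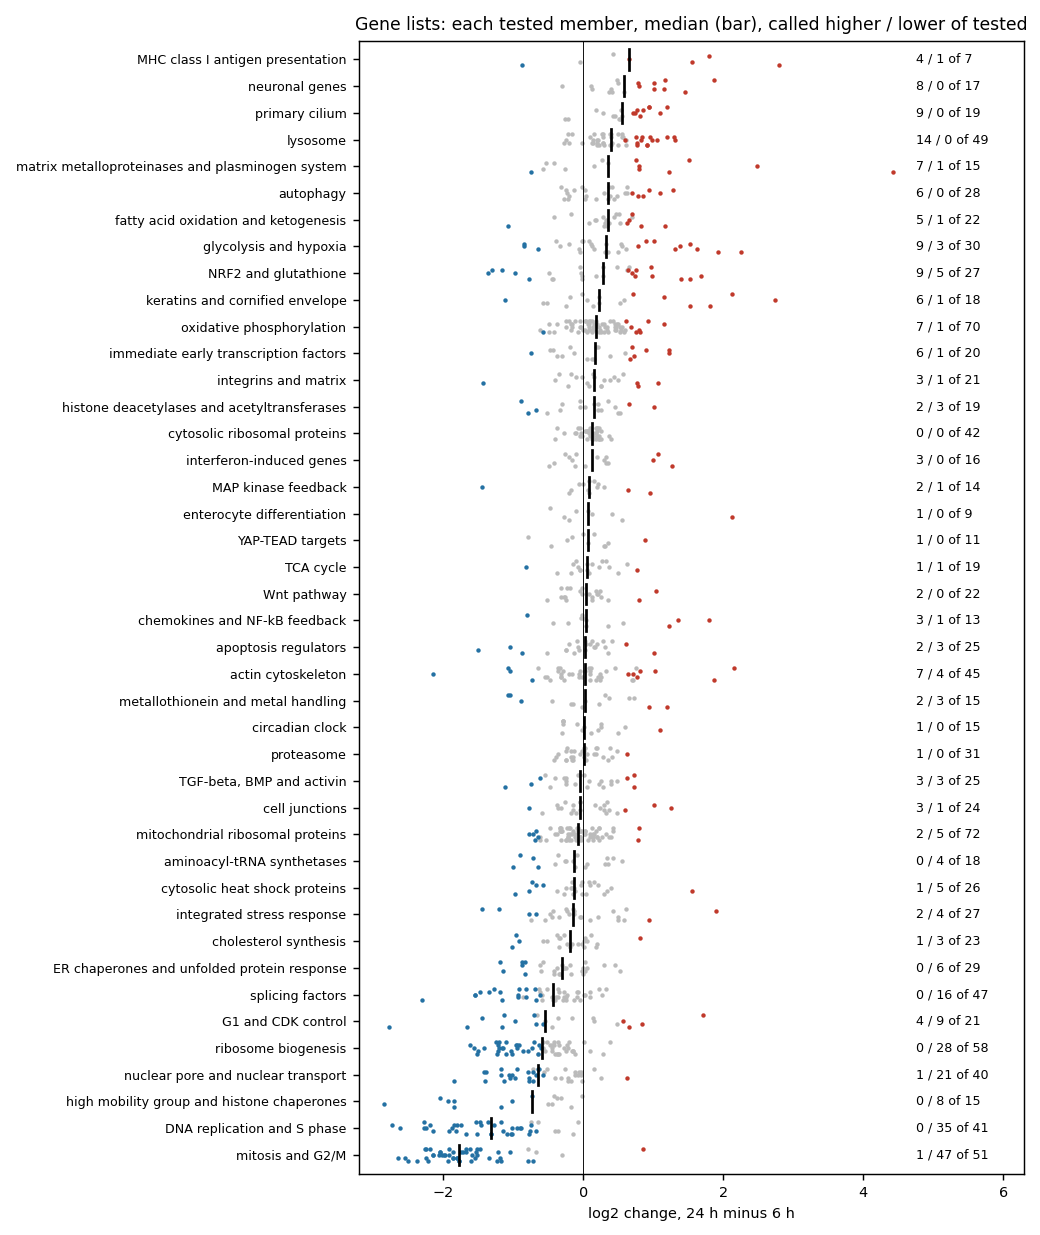
Each point is a tested member of 1 of 42 gene lists, placed by its log2 change at 24 h minus 6 h (red called higher, blue called lower, grey not called), and the bar is the list's median. The figures at the right give members called higher, lower and tested; mitosis, at -1.77, and MHC class I antigen presentation, at 0.66, are the ends of the order.

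The counts of the lists that follow are read beside 10.6% higher and 11.7% lower among all tested genes. Among the lists that rose, MHC class I antigen presentation had 4 of 7 tested genes higher and 1 lower, a median log2 change of 0.66. Only 7 of the 13 on the array passed the filter. B2m, the light chain that every class I molecule needs, had 1437.6 and 1027.0 at 24 h, against 371.5 and 292.3 at 6 h (log2 change 1.79 ± 0.22). H2-D1, another heavy chain, had 7860.9 and 5609.1 at 24 h, against 2561.0 and 1984.1 at 6 h. For both genes the 24 h arrays lay above the 6 h arrays with a wide gap. Psmb10, a catalytic subunit of the immunoproteasome, was lower (-0.87), a call lost without the first 24 h array (adjusted p = 0.154) or the second 6 h array (0.0846). Of 16 interferon-induced genes 3 were higher (18.8%, beside 10.6% of all tested genes). They were Oas1a (1.27), Irf7 (1.07) and Igtp, the last with 219.0 and 175.6 at 24 h, against 78.4 and 86.0 at 6 h. In limma 0 were lower, and 1 at an unadjusted p under 0.05.

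Of 15 matrix protease and plasminogen genes tested, 7 were higher and 1 lower (median 0.36). Mmp13, a collagenase, had 592.3 and 616.0 at 24 h, against 98.8 and 67.0 at 6 h (log2 change 2.48 ± 0.20). The 6 h arrays were also below the 208.9 and 139.8 of 0 h, so its rise passed its start. Timp1, an inhibitor of these proteases, had 2499.5 and 2925.1 at 24 h, against 890.3 and 974.9 at 6 h, while Timp2 was lower (-0.74). The Timp2 call was lost without the first 24 h, second 6 h or second 24 h array, with adjusted p of 0.198, 0.206 and 0.089, and the count of higher genes was 4 without the second 24 h array.

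Keratin and cornified envelope genes had 6 of 18 higher and 1 lower (median 0.23). The lower gene was Tgm1 (log2 change -1.11), a call lost without a filter on low values. Krt20, a keratin of differentiated gut epithelium, had 12430.0 and 18156.3 at 24 h, against 2993.8 and 3949.1 at 6 h (log2 change 2.12 ± 0.23, adjusted p = 0.000458). Krt5, a keratin of basal stratified epithelium, had 319.4 and 319.2 at 24 h, against 95.0 and 86.0 at 6 h. Sprr2h, a small proline-rich envelope gene, had 829.4 and 811.7 at 24 h, against 199.8 and 223.6 at 6 h. These genes are known from gut, skin and mesenchymal cells, and 2 of the 6 passed the filter through their 24 h arrays alone. Of 9 tested enterocyte genes, Krt20 was the 1 called higher; 21 of the 30 on the array did not pass the filter.

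Lysosome genes had 14 of 49 higher and a median log2 change of 0.39, with 43 of the 49 changes above 0; in limma 0 were lower, also at an unadjusted p under 0.05. Atp6v0d1, a subunit of the proton pump that acidifies lysosomes, had 4608.3 and 4432.8 at 24 h, against 1928.5 and 1686.1 at 6 h (log2 change 1.31 ± 0.18). Hexa, which breaks down gangliosides, had 255.7 and 169.3 at 24 h, against 78.2 and 67.2 at 6 h. It passed the filter through its 24 h arrays alone, so it had to differ. Arsa, a sulfatase, rose by 1.06. Cd68, a lysosomal membrane protein that is also a macrophage marker, had 1040.8 and 1119.4 at 24 h, against 385.0 and 461.5 at 6 h. The signals of the 9 immune markers on the array summed to 768.4 and 661.8 at 24 h, against 806.7 and 855.6 at 6 h. Among them Ptprc, Cd52 and Coro1a were brighter on both 24 h arrays than on either 6 h array and Csf1r was dimmer; their part in the lysosome result was not tested. The count of lysosome genes was 6 without either 24 h array. The E-box letters TCACGTGA stood in 6 of 41 lysosome promoters (14.6%), beside 2.17% of those of tested genes. The shorter CACGTG that they contain stood in 34.1%, beside 10.8%. These letters are not particular to lists that rose. In the aminoacyl-tRNA synthetase list, with 4 of 18 genes lower, they stood in 18.2% and 36.4% of 11 promoters. A difference between lists was not tested.

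Autophagy genes had 6 of 28 higher (21.4%, beside 10.6% of all tested genes) and a median of 0.36. In limma 0 were lower, also at an unadjusted p under 0.05. Map1lc3a, a protein of the autophagosome membrane, had 1520.7 and 1637.3 at 24 h, against 578.1 and 683.8 at 6 h (log2 change 1.28 ± 0.18). Sqstm1, a receptor that delivers cargo to it, had 16101.6 and 16989.8 at 24 h, against 8025.7 and 9259.9 at 6 h. For both genes the 24 h arrays lay above the 6 h arrays.

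Neuronal genes had 8 of 17 higher, with a median of 0.58, though only 17 of the 43 on the array passed the filter and 2 of the 8 did so through the 24 h arrays alone. Ncam1, the neural cell adhesion molecule, had 1126.6 and 1219.6 at 24 h, against 269.1 and 330.2 at 6 h (log2 change 1.87 ± 0.19). Uchl1, a ubiquitin hydrolase of neurons, had 4072.7 and 4047.1 at 24 h, against 1908.5 and 1708.3 at 6 h. The signals of the 10 enteroendocrine markers summed to 546.9 and 438.7 at 24 h, against 341.7 and 397.1 at 6 h, and their part in the neuronal result was not tested. The brightest of them was Isl1, with 135.7 and 117.9 at 24 h, against 82.5 and 62.1 at 6 h. Primary cilium genes had 9 of 19 higher and a median of 0.55, led by Arl3, a small GTPase of ciliary cargo delivery, with 3607.1 and 3062.4 at 24 h, against 1564.4 and 1318.7 at 6 h. In limma 0 genes of either list were lower, also at an unadjusted p under 0.05. The neuronal count was 4 without the first 24 h array, and the cilium count 4 and 3 without the first and the second.

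Energy metabolism shifted in parts. Of 30 glycolysis and hypoxia genes, 9 were higher and 3 lower, a median log2 change of 0.32. Ndrg1, a gene raised by low oxygen and in differentiation, had 7198.4 and 7162.8 at 24 h, against 1443.4 and 1508.3 at 6 h (log2 change 2.26 ± 0.17). The phosphofructokinase isoforms parted: Pfkp, the platelet form, had 683.7 and 687.2 at 24 h, against 148.8 and 167.4 at 6 h, while Pfkl, the liver form, had 593.4 and 589.2 at 24 h, against 1116.4 and 1063.2 at 6 h. The Pfkl call was lost without the second 24 h array (adjusted p = 0.0517), and the list's lower count was 1 without the first 6 h or first 24 h array and 0 without the second 24 h array. Of 22 fatty acid oxidation genes 5 were higher and 1 lower (median 0.36); without the first 6 h, first 24 h or second 24 h array the higher count was 2, 1 and 1. Acadvl, which starts the breakdown of long-chain fatty acids in mitochondria, had 2644.8 and 2313.8 at 24 h, against 1105.6 and 1055.7 at 6 h.

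Glutathione genes also parted. Of 27 NRF2 and glutathione genes, 9 were higher and 5 lower. The synthesis and recycling genes Gclm (-1.30), Gclc (-0.98) and Gsr (-1.36) fell, while Gss, which completes glutathione, rose, with 932.4 and 803.5 at 24 h, against 289.2 and 269.1 at 6 h. Nqo1, a quinone reductase, had 2762.7 and 2341.4 at 24 h, against 1016.1 and 885.1 at 6 h. Txnip, which binds thioredoxin and limits glucose uptake, had 8209.4 and 9042.8 at 24 h, against 2322.8 and 3040.2 at 6 h (log2 change 1.68 ± 0.20). The Gclc call was lost without the first 24 h array (adjusted p = 0.0578). The count of higher genes was 4 without the second 24 h array and that of lower genes 3 without the first.

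Of 27 integrated stress response genes, 2 were higher (7.41%) and 4 lower (14.8%), with a median of -0.15, beside 10.6% and 11.7% of all tested genes. The higher count was 4 without the first 6 h array and 1 without the second 24 h array. Ddit3, the stress factor CHOP, had 4392.9 and 5523.4 at 24 h, against 1128.8 and 1512.5 at 6 h (log2 change 1.89 ± 0.21), while Slc7a5, an amino acid carrier, had 585.5 and 489.2 at 24 h, against 1216.4 and 1328.8 at 6 h. Of 29 genes for chaperones of the endoplasmic reticulum and the unfolded protein response, 6 were lower, with Manf (-1.19) and Hsp90b1 (-1.15) in front, and 2 without the second 24 h array. The 6 lower genes are 20.7% of the list, beside 11.7% of all tested genes. In limma 0 were higher, and 1 at an unadjusted p under 0.05. Hspb1, a small heat shock protein, had 3091.8 and 2441.8 at 24 h, against 921.2 and 897.1 at 6 h. By contrast, 5 of the 26 heat shock genes tested were lower (19.2%, beside 11.7% of all tested genes). That count was 1 without either 24 h array and 3 without either 6 h array.

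Among 20 immediate early factors, 6 were higher (30.0%) and 1 lower (5.0%), beside 10.6% and 11.7% of all tested genes. Their median was 0.17. Ier3 had 11186.6 and 13331.4 at 24 h, against 5207.3 and 5142.8 at 6 h, and Junb, an AP-1 subunit, had 1982.6 and 2524.0 at 24 h, against 885.2 and 1003.2 at 6 h. Fos, its partner in AP-1, had 1905.9 and 1569.9 at 24 h, against 936.6 and 1231.8 at 6 h (log2 change 0.67 ± 0.21, adjusted p = 0.0449). That call was lost without the first 6 h array (0.188) or either 24 h array (0.225 and 0.0778). For Egr1, another early factor, the log2 change was 0.16 ± 0.17 (adjusted p = 0.548). For Myc, a driver of growth, it was 0.06 ± 0.22 (adjusted p = 0.879). The count of higher genes was 3 without either 24 h array and also 3 with arrays scaled to their medians.

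Genes fixed for description but not called include Gsn, an actin-severing protein, with 13737.1 and 9693.9 at 24 h, against 8368.2 and 5996.0 at 6 h (adjusted p = 0.0635). Hdac1, a deacetylase that butyrate inhibits, had 1845.1 and 1809.7 at 24 h, against 1502.8 and 1101.1 at 6 h (log2 change 0.50 ± 0.20, adjusted p = 0.111). Slc16a1, the monocarboxylate carrier that takes up butyrate, had 3146.0 and 2937.8 at 24 h, against 3994.0 and 4325.3 at 6 h (log2 change -0.45 ± 0.18, adjusted p = 0.103). A p that misses the threshold does not show equal levels. Fst, the activin-binding follistatin, was called lower, with 140.5 and 226.4 at 24 h, against 424.8 and 431.0 at 6 h, and the call was lost without the first 24 h array (adjusted p = 0.0524). In the actin list, tropomyosins parted: Tpm1 had 1160.7 and 1064.0 at 24 h, against 4954.4 and 5155.3 at 6 h, while Tpm2 was higher by 1.03, a call lost without the first 6 h array (adjusted p = 0.0614) or the first 24 h array (0.0984).

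Some genes moved back towards or past their start. A gene was called returning when its 0 h arrays lay entirely on the side of the 6 h arrays towards which it moved by 24 h. This class held 133 of the 777 higher genes (17.1%) and 180 of the 861 lower genes (20.9%), beside 25.4% of the genes not called. Of the 133, 100 ended above both 0 h arrays, 26 overlapped them and 7 stayed below. Of the 180, 136 ended below both 0 h arrays, 30 overlapped them and 14 stayed above. A larger group continued: 318 higher genes (40.9%) and 382 lower genes (44.4%) had moved the same way by 6 h. The share was 30.5% among the genes not called. For 326 higher (42.0%) and 299 lower genes (34.7%) the 6 h and 0 h arrays overlapped, beside 44.1% of the genes not called. The position of the 0 h arrays is a description, since the 6 h arrays enter both it and the test.

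Il24, a cytokine of epithelial cells, started at a mean signal of 1462 ± 60.4 at 0 h (SD, n = 2). Its means were 644.7 ± 27.4 at 6 h, 1291 ± 135 at 12 h and 3356 ± 385 at 24 h. It dropped early and ended above its start, with a log2 change of 2.32 ± 0.18 from 6 h (adjusted p = 0.000137). Bhlhe40, a repressor in the circadian clock, had 868.1 and 1035.5 at 24 h, against 360.1 and 507.1 at 6 h, and stayed below the 1537.0 and 1161.4 of 0 h. Pigc, an enzyme of membrane anchor synthesis, and Rdh14, a retinol dehydrogenase, had log2 changes of 0.86 each. Renbp, a renin-binding protein, Capn8, a calpain protease, Has1, a hyaluronan synthase, and Kat6b, a histone acetyltransferase, completed the 8 leading returning rises, with log2 changes of 2.17, 1.41, 1.09 and 0.85. Calls of 5 of these 8 were lost without 1 array: Capn8 without the first 24 h (adjusted p = 0.109), Rdh14 without the first 6 h or first 24 h (0.0613 and 0.127), Pigc without the second 6 h or second 24 h (0.0513 and 0.073), Kat6b without the same arrays (0.0596 and 0.194), and Has1 without any but the first 6 h (0.0894 to 0.157).

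Lrr1, a substrate receptor that helps take the replication helicase off DNA, led the returning falls. It had 41.7 and 57.6 at 24 h, against 494.1 and 377.9 at 6 h, and 186.1 and 160.9 at 0 h. Nrarp, a feedback inhibitor of Notch signalling, had 639.0 and 400.8 at 24 h, against 1542.2 and 1112.1 at 6 h, with a 0 h range that its 24 h arrays overlapped. Slc40a1, the iron exporter ferroportin, had 1128.5 and 1540.2 at 24 h, against 2719.7 and 2770.2 at 6 h, again within reach of the 1228.6 and 1366.4 of 0 h. By the definition of the class, these genes were higher on the 6 h arrays than at 0 h and 24 h.

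Dpf1 and Rgs16, a neuronal chromatin factor and a brake on G protein signalling, stayed above their 0 h arrays, with log2 changes of -1.13 and -1.01 from 6 h. Lmnb2, a nuclear lamina protein, Tbl2 and Rnf19b had log2 changes of -1.48, -1.17 and -1.03. Without the first 24 h array the calls of Slc40a1 (adjusted p = 0.0549) and Rnf19b (0.131) were lost, and without the second that of Rgs16 (0.0616).

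**Figure D5:**
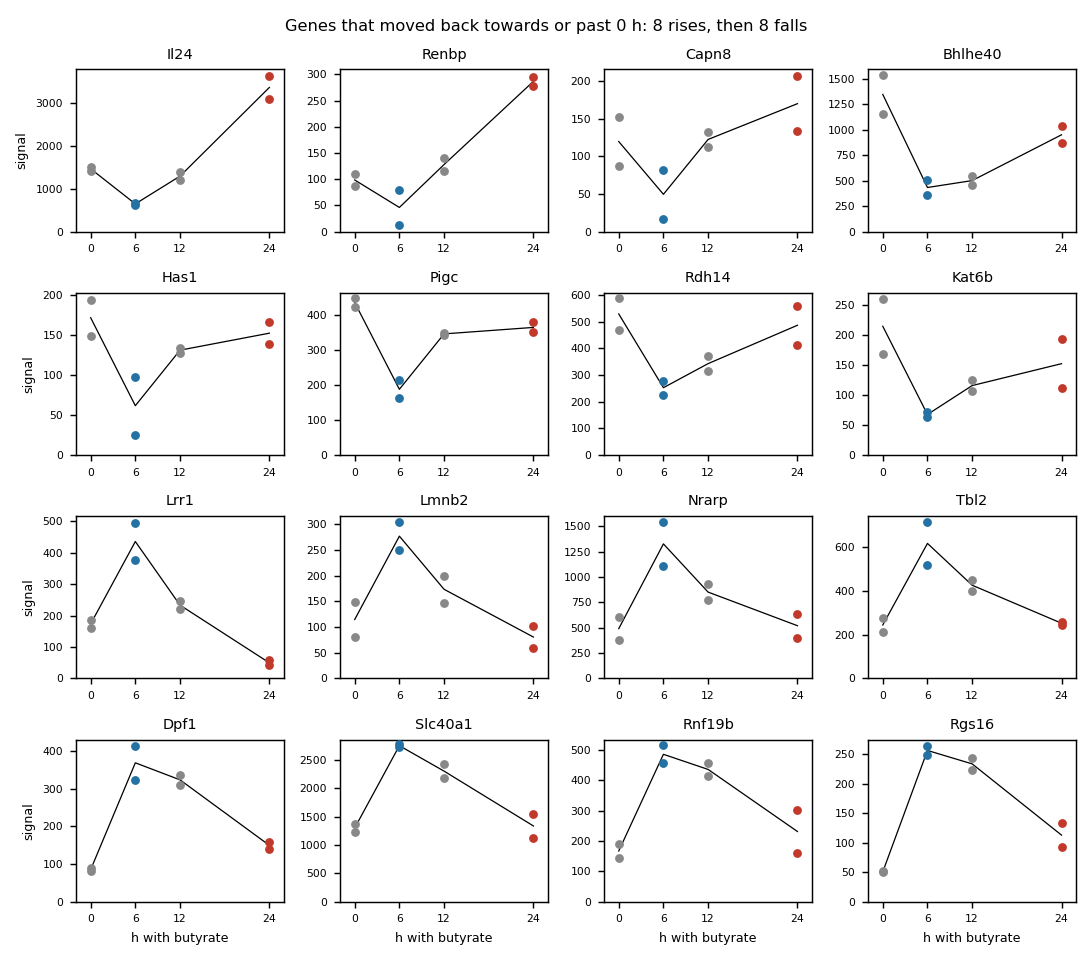
Signals of the 8 leading returning rises (upper panels) and 8 returning falls (lower panels) are plotted against hours with butyrate, each on its own linear scale. Points are arrays (red 24 h, blue 6 h, grey 0 h and 12 h) and lines join means of 2 arrays. By the definition of the class, the rises are lower at 6 h than at 0 h and 24 h, and the falls are higher. Il24 ends above its 0 h arrays while Bhlhe40 ends below them.

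The 12 h arrays mostly lay on the way. The 12 h mean was between the 6 h and 24 h means for 736 of the 777 higher genes (94.7%) and 797 of the 861 lower genes (92.6%), beside 48.7% of the genes not called. It lay beyond 24 h for 23 higher and 34 lower genes and on the far side of 6 h for 18 and 30. Krt20 climbed at each time, with mean signals of 1377 before butyrate, 3471 at 6 h, 8066 at 12 h and 15290 at 24 h. Mcm5 had 859.9, 947.8, 375.0 and 116.0 at these times.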

How the data were processed

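RNA was measured on Affymetrix mouse 430A arrays, with total RNA as the molecule and phycoerythrin as the label, per the labels and the series design. The authors deposited 1 table of 22690 probe sets with a linear intensity (signal) per array, which was used as deposited. Which software made them is not given in the sources used, and the common 2% trimmed mean of 500.2 shows that arrays had been scaled. The table has no detection calls. Control probe sets (64) were left out. Platform annotation gave 1 gene for 20380 probe sets, several for 691 and none listed for 1555; only the first kind was named, and 20351 matched RefSeq GRCm38.p6.

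Probe sets were tested if 2 or more of the 8 arrays exceeded the overall median of 144.5, and each gene was represented by its brightest kept probe set. The 4 arrays of 24 h and 6 h were fitted with limma (version 3.58.1, R 4.3.3) on log2(signal + 32), with lmFit and eBayes (residual df 2, prior df 7.15), and p-values were adjusted by Benjamini-Hochberg over 7340 genes. The fit was tested on simulated data. Members and gene lists were chosen with earlier results of these data known. Named genes are the 12 largest rises and falls, the 8 leading returning rises and falls (ranked by the smaller of the early and late change), up to 4 called members a list and direction, and 15 fixed genes, leaving aside predicted and clone-only names. The largest and the returning ones were taken from called genes whose 24 h and 6 h arrays did not overlap. Alternatives changed the amount added, filter, scaling, fit, probe set and arrays. Promoter windows come from RefSeq, 1 a gene.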

Additional observations from a re-analysis of the deposited data

How the results depend on the processing

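Across the 15 alternatives that give 1 value a gene, 0 of the called genes they tested (814 of the 1638 under a stricter filter, all 1638 under the others) were called in the opposite direction in limma. With every named probe set tested, a second one of Mtm1 was (0.95). Without a filter 12393 genes were tested and 317 were higher and 334 lower at 24 h, of which 558 genes were among the 1638. A stricter filter tested 3679 genes and called 433 higher. Leaving out 1 array gave 382 to 680 genes higher and 485 to 749 lower, with the low ends without a 24 h array: 382 and 539 without array 1, 401 and 485 without array 2. Requiring 2-fold left 278 and 386, and an adjusted p under 0.01 left 322 and 438. Scaling to medians shifted the median of all genes by less than 0.1 and gave 650 and 1017, a share of higher calls of 39.0% beside 47.4%. Of 3704 named values under alternatives, 3188 kept their side of the threshold, 509 lost the call and 7 gained it (Gsn 5, Hdac1 2).

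The times share the replicate numbers 1 and 2, but nothing states that a number marks a shared culture or day. The differences between array 1 and array 2 correlated at r = 0.264 between 24 h and 6 h over genes. With the replicate number as a block, 1216 genes were higher and 1307 lower, and all 1638 calls were among them. Low signals limit the rest: a fold against a 6 h signal near background depends on the amount added.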

Other observations

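The counts of the further gene lists are read beside 10.6% higher and 11.7% lower among all tested genes at 24 h, and a share near these is no result about a list. Of 13 chemokine and NF-kB feedback genes tested, 3 were higher and 1 lower at 24 h: Ccl20, a chemokine that draws dendritic cells, had 496.8 and 473.4 at 24 h, against 131.4 and 103.1 at 6 h (log2 change 1.80 ± 0.19), Lcn2, an iron-withholding protein, rose by 1.35 and Il1rn, an interleukin-1 antagonist, by 1.22. Il33 was lower (-0.80), a call lost without the first 6 h array (adjusted p = 0.0855) or the first 24 h array (0.178). Of 24 cell junction genes 3 were higher (12.5%) and 1 lower (4.17%), with Cldn4, a tight junction claudin, at 13564.0 and 14561.6 at 24 h, against 6700.0 and 7277.6 at 6 h. Mt1, a metallothionein, had 7398.0 and 8532.7 at 24 h, against 3399.6 and 3478.6 at 6 h; its list had 2 of 15 higher and 3 lower. Bok, a BCL2 family member that promotes cell death, had 248.1 and 321.2 at 24 h, against 918.2 and 800.1 at 6 h, among 3 lower (12.0%) and 2 higher (8.0%) of 25 apoptosis regulators, with 1 higher whichever array was left out. Cnn1, a calponin of smooth muscle, had 154.7 and 211.0 at 24 h, against 14.3 and 17.1 at 6 h, among 7 higher and 4 lower of 45 actin cytoskeleton genes; the higher count was 2 without the first 24 h array. Etv4, an ETS factor downstream of MAP kinases, had 97.6 and 103.8 at 24 h, against 372.4 and 289.3 at 6 h, among 1 lower (7.14%) and 2 higher (14.3%) of 14 MAP kinase feedback genes, with 1 higher whichever array was left out.

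Of 70 oxidative phosphorylation genes 7 were higher and 1 lower (median log2 change 0.18; 3 higher without either 24 h array and 18 with the replicate block), led by Cox7a2l with 7025.3 and 5735.1 at 24 h, against 2956.1 and 2681.9 at 6 h. Of 72 mitochondrial ribosomal proteins 2 were higher and 5 lower, of 31 proteasome genes 1 was higher, and of 19 TCA cycle genes 1 was higher and 1 lower. Cholesterol synthesis had 1 higher and 3 lower of 23, aminoacyl-tRNA synthetases 4 lower of 18, and histone deacetylases and acetyltransferases 2 higher and 3 lower of 19, with Sirt2 the largest rise (1.01). Integrins and matrix had 3 higher and 1 lower of 21, TGF-beta, BMP and activin genes 3 and 3 of 25, the Wnt pathway 2 higher of 22, YAP-TEAD targets 1 higher of 11 and the circadian clock 1 higher of 15. Each of these medians lay between -0.19 and 0.18. Without either 24 h array the lower count was 1 for the mitochondrial ribosomal proteins, the synthetases and the histone enzymes. The lower count was 1 to 2 for the mitochondrial ribosomal proteins without a 6 h array, and 2 for the synthetases without the second. The integrin and matrix list had 1 higher without the second 24 h array, and the metal list above had 1 lower without the first. In the TGF-beta list the higher count was 0 without the second 6 h array or either 24 h array, and the lower count 1 without the first 6 h or second 24 h array and 0 without the first 24 h array.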
